A study of Homo sapiens with 30 samples.

Results

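The 10 genes described here make, regulate and break down polyamines: ODC1, AMD1, SRM, SMS, OAZ1, OAZ2, AZIN1, SAT1, SMOX and PAOX. They were taken by gene symbol from the 25680 symbols in the files, each represented by its transcript entry with the highest mean count, and all 10 passed the filter on low counts. The study compared H929 and OPM2, both human multiple myeloma lines, after 24 h in 100 nM dBRD9-A or in its solvent DMSO. dBRD9-A is a small molecule that has the BRD9 protein degraded. BRD9 carries a bromodomain and belongs to a chromatin remodelling complex, non-canonical BAF. The 4 groups were H929 with dBRD9-A, H929 with DMSO, OPM2 with dBRD9-A and OPM2 with DMSO, each with 3 libraries of bulk RNA. No label gives a genetic change for these groups, and each line is a model of the single tumour it came from.

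Polyamines are small, positively charged molecules that bind RNA and DNA and that dividing cells need for protein synthesis. Ornithine decarboxylase (ODC1) makes putrescine, and aminopropyl groups from decarboxylated S-adenosylmethionine, the product of AMD1, turn it into spermidine (by SRM) and then spermine (by SMS). Antizymes (OAZ1, OAZ2) bind ODC1 and bring it to the proteasome, the antizyme inhibitor AZIN1 counters them, and SAT1, SMOX and PAOX acetylate or oxidise the products. ODC1 and SRM are known targets of MYC, a transcription factor that binds, with MAX, to the letters CACGTG (the E-box), and plasma cell tumours often depend on MYC.

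The promoter windows of SRM and ODC1 are shown because they had the lowest log2 fold changes of the 10 genes in both lines and were the members whose listed windows held the E-box. The windows are RefSeq's, on GRCh38.p14, which is not the build of the counts, and run from 250 bases before to 20 bases after a transcription start. SRM lies at chr1:11059999-11060268 and ODC1 at chr2:10447993-10448262, both on the minus strand, and capitals mark the E-box.
SRM: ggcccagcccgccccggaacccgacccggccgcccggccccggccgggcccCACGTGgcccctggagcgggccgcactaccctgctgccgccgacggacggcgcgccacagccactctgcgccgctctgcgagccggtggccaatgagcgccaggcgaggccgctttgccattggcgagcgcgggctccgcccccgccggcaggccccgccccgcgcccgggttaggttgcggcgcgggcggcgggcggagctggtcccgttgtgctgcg
ODC1: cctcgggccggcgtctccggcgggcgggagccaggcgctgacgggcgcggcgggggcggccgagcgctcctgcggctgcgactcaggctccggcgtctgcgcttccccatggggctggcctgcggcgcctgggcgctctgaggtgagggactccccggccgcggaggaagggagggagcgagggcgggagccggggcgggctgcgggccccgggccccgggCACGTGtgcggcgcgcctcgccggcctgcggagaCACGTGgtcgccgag
The E-box of SRM began at position -199, where -1 is the last base before the start and 1 the first transcribed base. Those of ODC1 began at positions -29 and 6, and a second ODC1 window that begins at another start held none. Of 35116 such windows in the table, 6.78% held CACGTG, which reads the same on both strands, and 0.624% held it at least 2 times. Windows were listed for 7 of the 10 genes, and those of AMD1, SMS, OAZ1, OAZ2 and SAT1 did not hold these letters. No binding was measured in these libraries.

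The libraries held 24524190 to 76600957 counts over genes. The library with the fewest, OPM2 dBRD9-A replicate 2, stood apart. Its log2 deviations from the mean of its group mates had an SD of 0.90 over 11467 genes, against 0.15 to 0.26 for libraries of the other groups. Its chi-square per degree of freedom against its group mates was 255 and 287, against 16.9 to 48.1 for every other pair of replicates. Its deviations also followed transcript GC content across genes (Spearman -0.68). That trend was not particular to it, with -0.57 and 0.62 in H929 dBRD9-A replicates 1 and 2 and 0.06 in H929 DMSO replicate 1. Results that rest on OPM2 dBRD9-A replicate 2 are therefore given with and without it. All 9 plasma cell markers looked for were present in both lines, and their summed level was 9189 to 10410 CPM (counts scaled by library size and TMM factor) in H929 with dBRD9-A, 15586 to 16884 in H929 with DMSO, 6516 to 7590 in OPM2 with dBRD9-A and 11770 to 14102 in OPM2 with DMSO. The highest of these markers in every group was IGJ, the joining chain of secreted antibodies. It had 3965 to 4934 CPM in H929 with dBRD9-A, 9385 to 10087 in H929 with DMSO, 2244 to 2695 in OPM2 with dBRD9-A and 6521 to 8064 in OPM2 with DMSO. IRF4, MZB1 and SLAMF7 were lower with dBRD9-A in both lines, without overlap of the libraries. TNFRSF17 was lower in H929 and overlapped in OPM2. SDC1, CD38 and PRDM1 overlapped between treatments in both lines. XBP1 was higher in OPM2 with dBRD9-A (1649.7 to 1827 CPM) than with DMSO (1351 to 1559 CPM). In H929 XBP1 was lower with dBRD9-A (2037 to 2259 CPM) than with DMSO (2271 to 2334 CPM).

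Summed levels of markers of other cell types also moved with treatment, in H929 mainly through 1 or 2 genes a list. In H929, the 5 T cell markers summed to 36.8 to 39.8 CPM with dBRD9-A and 23.3 to 25.7 with DMSO, of which CD3E made 36.3 to 39.3 with dBRD9-A and 23.2 to 25.5 with DMSO, while the other 4 stayed below 0.5. The 5 myeloid markers summed to 5.22 to 10.6 CPM with dBRD9-A and 1.55 to 4.10 with DMSO, of which CSF1R made 5.02 to 10.3 with dBRD9-A and 1.42 to 3.95 with DMSO. The 6 stromal and epithelial markers, mostly KRT8 and KRT18, summed to 15.2 to 26.1 CPM with dBRD9-A and 8.46 to 11.4 with DMSO, and COL1A2 was at 0 in every library. In OPM2 these stromal and epithelial markers summed to 0.337 to 1.05 CPM with dBRD9-A and 0.0942 to 0.178 with DMSO. The 5 erythroid markers, mostly HBB, summed to 3.21 to 4.50 CPM in OPM2 with dBRD9-A and 5.91 to 6.58 with DMSO, and HBA2 was at 0 in every library. The part of these shifts in the results below was not tested. Because the samples are bulk RNA, fewer cells of a kind and less RNA per cell cannot be told apart.

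Per length, in the deposited TPM values, the antizyme OAZ1 was the most abundant member in all 4 groups, at 644 ± 87.3 TPM in H929 with dBRD9-A, 573 ± 56.3 in H929 with DMSO, 560.4 ± 208 in OPM2 with dBRD9-A and 648 ± 25.3 in OPM2 with DMSO (SD, n = 3 each). ODC1 and SRM came next in every group. Their ranges over libraries overlapped in 3 groups and not in OPM2 with dBRD9-A, where ODC1 had 124 to 138 TPM and SRM 81.8 to 119 TPM. AMD1, SMS and AZIN1 followed between 28.7 and 108 TPM over all libraries, with AZIN1 above the other two in H929 and below them in OPM2. OAZ2 ranked 7 in all 4 groups, at 14.1 to 40.9 TPM.

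The catabolic genes were the lowest. SAT1 had 11.7 to 14.5 TPM in H929 with dBRD9-A, 10.00 to 11.6 in H929 with DMSO, 3.73 to 4.81 in OPM2 with dBRD9-A and 3.68 to 3.89 in OPM2 with DMSO. SMOX had 6.79 to 8.55 TPM in H929 with dBRD9-A, 3.70 to 4.24 in H929 with DMSO, 2.69 to 5.53 in OPM2 with dBRD9-A and 3.42 to 3.91 in OPM2 with DMSO. Its range overlapped with that of SAT1 in OPM2 and not in H929. PAOX was the lowest member in every group, at 0.0473 to 3.71 TPM.

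**Figure D1:**
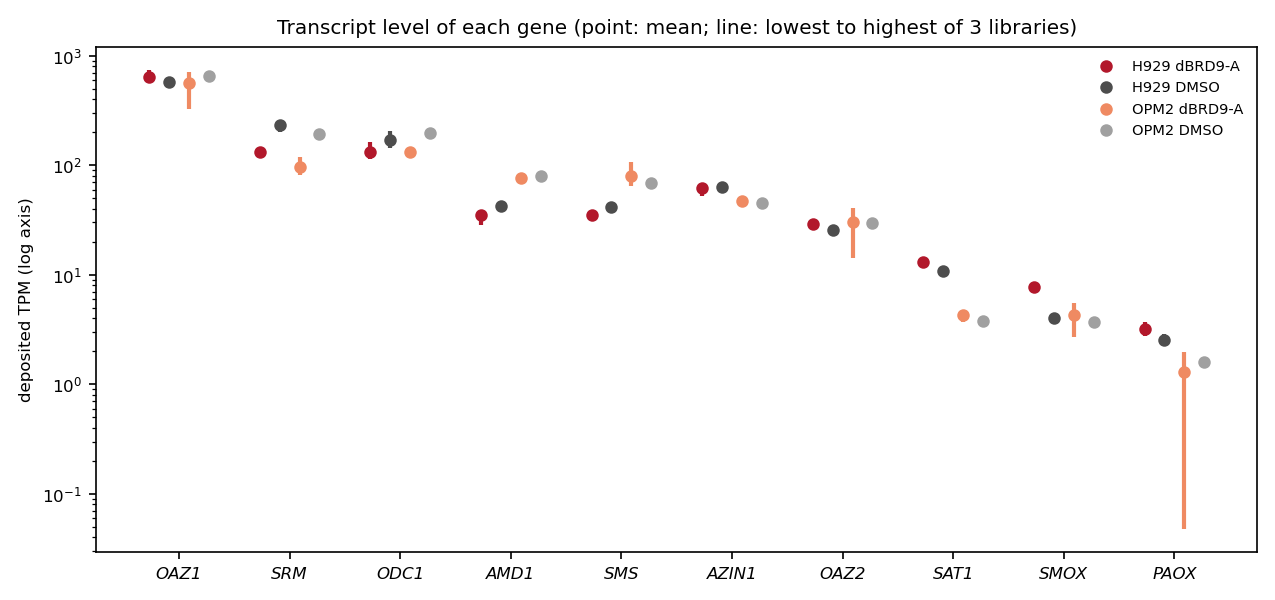
Deposited TPM of the 10 genes on a log axis in H929 with dBRD9-A, H929 with DMSO, OPM2 with dBRD9-A and OPM2 with DMSO, with points at the mean and lines over the lowest to highest of 3 libraries. OAZ1 is highest and PAOX lowest in all 4 groups, and the long lines in OPM2 with dBRD9-A reach to replicate 2.

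The first comparison asks which members responded to dBRD9-A in each line. The spermidine synthase transcript SRM was lower with dBRD9-A in both lines, 1.89-fold in H929 and 2.13-fold in OPM2. ODC1 was lower in OPM2, and the spermine oxidase transcript SMOX was higher in H929. At an adjusted p under 0.05 in edgeR's quasi-likelihood test with Benjamini-Hochberg adjustment over all 16409 genes tested, 2 of 10 members were called in H929, where 13.0% of all genes were, and 2 of 10 in OPM2, where 17.4% of all genes were. The other 8 members of each line were not called. Counts by library below are TMM-scaled CPM in replicates 1, 2 and 3.

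SRM, which joins an aminopropyl group to putrescine, had 142, 191 and 173 CPM in H929 with dBRD9-A, against 288, 362 and 307 CPM with DMSO. In OPM2 it had 102, 99.8 and 133 CPM with dBRD9-A, against 234, 249.9 and 228 CPM with DMSO. In each line all treated libraries lay below all DMSO libraries, including OPM2 dBRD9-A replicate 2. The fit gave SRM log2 fold changes of -0.92 ± 0.15 (SE) in H929 (adjusted p = 0.00233, edgeR) and -1.09 ± 0.15 in OPM2 (adjusted p = 0.000666). Without OPM2 dBRD9-A replicate 2 the OPM2 value was -1.03. SRM was called in H929 under all 22 alternative settings and in OPM2 under 21. The exception was removal of each library's trend with transcript GC content, which gave SRM, a transcript of 63.7% GC, a log2 fold change of -0.57 in OPM2 (adjusted p = 0.0574).

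ODC1, the enzyme that commits ornithine to polyamines, had 252, 287 and 377 CPM in H929 with dBRD9-A, against 373, 519.7 and 368 CPM with DMSO. In OPM2 the values were 269.8, 273 and 279 CPM with dBRD9-A, against 431, 439 and 438 CPM with DMSO. The groups overlapped in H929, where replicate 3 with dBRD9-A lay above 2 DMSO libraries, and were far apart in OPM2. For ODC1 the log2 fold change was -0.46 ± 0.16 in H929 (adjusted p = 0.0814, edgeR) and -0.67 ± 0.16 in OPM2 (adjusted p = 0.0147). The OPM2 value was -0.68 without replicate 2 of dBRD9-A, a library that for ODC1 lay between its group mates. Leaving out OPM2 DMSO replicate 2 took ODC1 just short of the threshold in OPM2 (adjusted p = 0.0512), with all other alternatives keeping the call. In H929 ODC1 depended on single libraries. It was called without OPM2 dBRD9-A replicate 2 (log2 fold change -0.42, adjusted p = 0.0259), without H929 dBRD9-A replicate 3 (-0.61, adjusted p = 0.0303) and with limma-voom (-0.35, adjusted p = 0.0495), and had -0.26 (adjusted p = 0.429) without H929 DMSO replicate 2 and -0.30 (adjusted p = 0.343) without H929 dBRD9-A replicate 1.

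AMD1, which supplies the aminopropyl donor, had 127, 102 and 133 CPM in H929 with dBRD9-A, against 145, 176 and 147 CPM with DMSO. OPM2 had 215, 277 and 218 CPM with dBRD9-A, against 244, 266 and 274 CPM with DMSO. All treated H929 libraries lay below the DMSO libraries, while in OPM2 replicate 2 with dBRD9-A was the highest of the 6. AMD1 had log2 fold changes of -0.37 ± 0.14 in H929 (adjusted p = 0.0995, edgeR) and -0.14 ± 0.14 in OPM2 (adjusted p = 0.504). With OPM2 dBRD9-A replicate 2 left out, AMD1 had -0.34 in H929 (adjusted p = 0.0173) and -0.28 in OPM2 (adjusted p = 0.0712). In OPM2 it was called lower with the GC trend removed (-0.30, adjusted p = 0.0424) and with limma-voom (-0.25, adjusted p = 0.0279). Both settings also called AMD1 lower in H929 (-0.31, adjusted p = 0.0420, and -0.29, adjusted p = 0.0221). So did the 2 H929 groups fitted alone (-0.37, adjusted p = 0.0324).

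SMS, the spermine synthase, had 61.3, 66.9 and 65.0 CPM in H929 with dBRD9-A, against 83.6, 83.8 and 81.0 CPM with DMSO. OPM2 had 112, 190.0 and 105 CPM with dBRD9-A, against 123, 121 and 123 CPM with DMSO. The H929 groups did not overlap, and in OPM2 replicate 2 with dBRD9-A lay above every other library of the line. SMS had log2 fold changes of -0.36 ± 0.18 in H929 (adjusted p = 0.223, edgeR) and 0.15 ± 0.18 in OPM2 (adjusted p = 0.602). Without OPM2 dBRD9-A replicate 2, where the SE was 0.07 in H929, SMS was called lower in H929 (log2 fold change -0.33, adjusted p = 0.00177), and its OPM2 value turned to -0.18 (adjusted p = 0.0795). SMS was also called lower in H929 with limma-voom (-0.36, adjusted p = 0.00131) and with the 2 H929 groups fitted alone (-0.36, adjusted p = 0.00837).

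**Figure D2:**
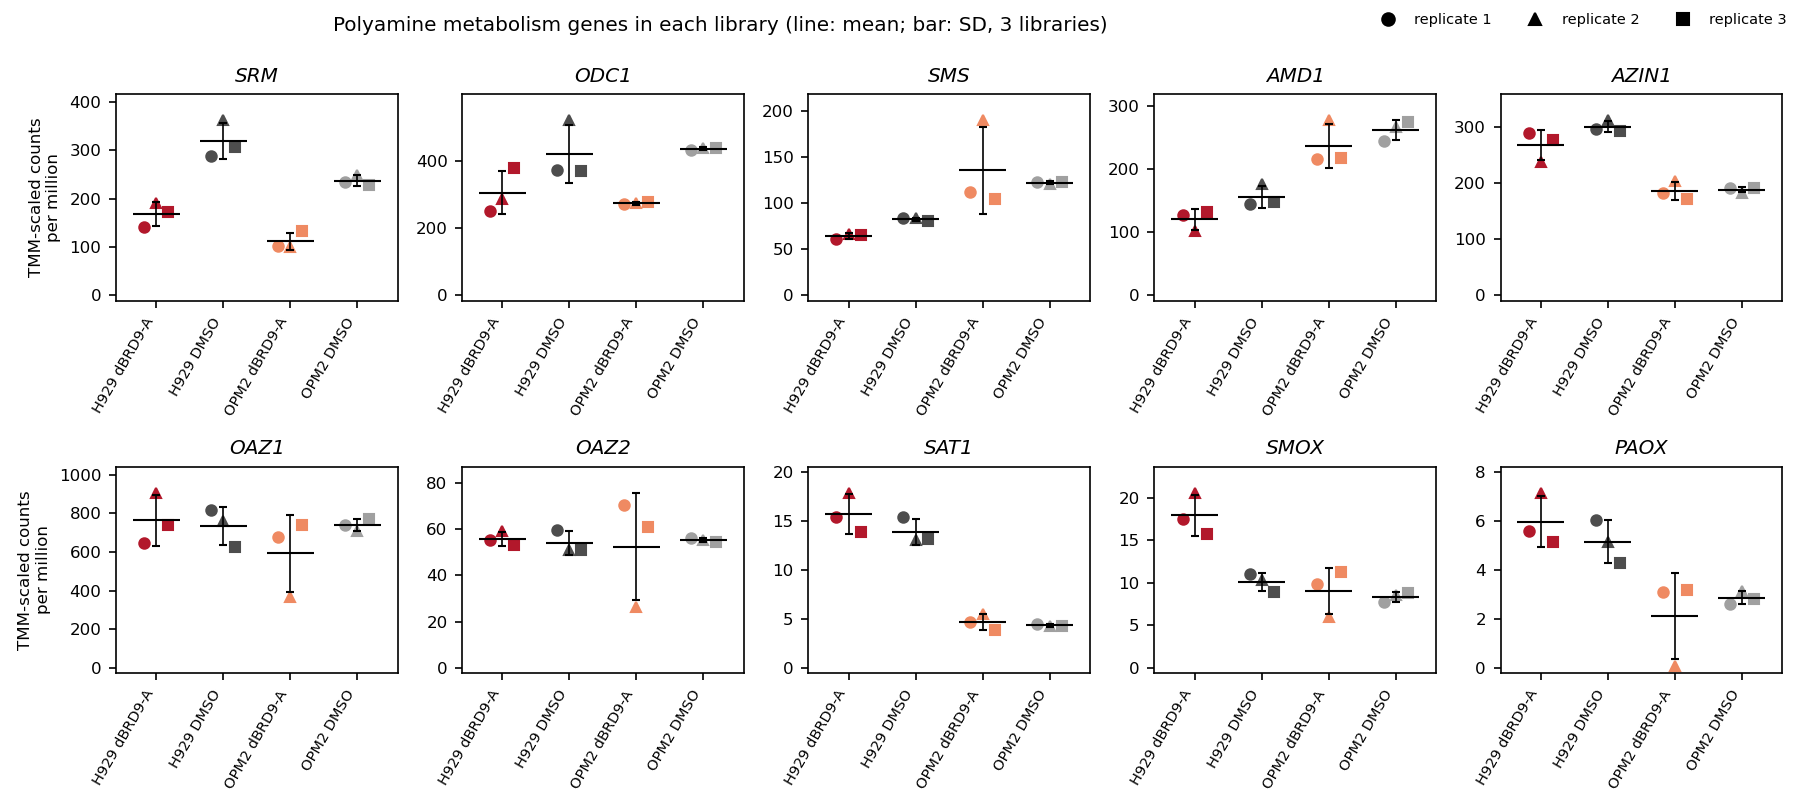
TMM-scaled CPM of each gene in every library, with a marker per replicate, in H929 with dBRD9-A, H929 with DMSO, OPM2 with dBRD9-A and OPM2 with DMSO. Lines are means and bars SDs of 3 libraries. SRM is lower with dBRD9-A in both lines, and the triangle of OPM2 dBRD9-A stands apart for SMS, OAZ1, OAZ2 and PAOX.

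Among the regulators of ODC1, no member was called in either line in edgeR. OAZ1 had 648, 906 and 738 CPM in H929 with dBRD9-A, against 819, 762 and 627 CPM with DMSO, and 677, 367 and 738 CPM in OPM2 with dBRD9-A, against 739.9, 707 and 772 CPM with DMSO. Its groups overlapped in both lines, and the low OPM2 value was replicate 2. The log2 fold change of OAZ1 was 0.05 in H929 (95% interval -0.43 to 0.54) and -0.32 in OPM2 (-0.80 to 0.17), or -0.08 in OPM2 without that replicate. Exons of OAZ1 overlap JSRP1 on the opposite strand in GENCODE release 29. Libraries were stranded, but the strand setting of the counting is not given here, and reads of the pair cannot be told apart. JSRP1 itself averaged 1713 counts over the libraries.

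OAZ2 had 55.4, 59.1 and 53.2 CPM in H929 with dBRD9-A, against 59.8, 51.1 and 51.1 CPM with DMSO, and 70.5, 26.1 and 60.8 CPM in OPM2 with dBRD9-A, against 56.2, 55.5 and 54.3 CPM with DMSO. Its log2 fold change was 0.05 in H929 (-0.51 to 0.61) and -0.07 in OPM2 (-0.63 to 0.49). In OPM2 the sign rested on 1 library, since the value without replicate 2 of dBRD9-A was 0.24 (adjusted p = 0.0719, edgeR), and limma-voom called it higher (0.26, adjusted p = 0.0266). AZIN1, which frees ODC1 from antizyme, had 290.0, 237 and 276 CPM in H929 with dBRD9-A, against 296, 312 and 294 CPM with DMSO, all 3 lower. In OPM2 it had 183, 204 and 172 CPM with dBRD9-A, against 191, 183 and 191 CPM with DMSO. The log2 fold change of AZIN1 was -0.17 in H929 (-0.40 to 0.06) and -0.02 in OPM2 (-0.25 to 0.21), a value near 0 whose sign changed with RLE factors, library size only, DESeq2, another low-count filter and libraries left out.

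Of the 3 catabolic genes, SMOX was called in H929. SMOX, which oxidises spermine back to spermidine, had 17.5, 20.6 and 15.8 CPM in H929 with dBRD9-A, against 10.998, 10.3 and 8.92 CPM with DMSO. OPM2 had 9.85, 5.98 and 11.2 CPM with dBRD9-A, against 7.71, 8.58 and 8.80 CPM with DMSO. All treated H929 libraries lay above all DMSO libraries, and in OPM2 replicates 1 and 3 with dBRD9-A lay above the DMSO libraries and replicate 2 below them. Fitted log2 fold changes were 0.83 ± 0.20 in H929 (adjusted p = 0.0193, edgeR), which is 1.78-fold, and 0.12 ± 0.20 in OPM2 (adjusted p = 0.714). The H929 call held in 18 of 22 alternative settings and was lost when H929 dBRD9-A replicate 1 or 2 or H929 DMSO replicate 2 or 3 was left out, with an adjusted p of up to 0.0828 and a log2 fold change of at least 0.76. The OPM2 value was 0.32 without replicate 2 of dBRD9-A (adjusted p = 0.0737). SMOX was called higher in OPM2 with the GC trend removed (0.42, adjusted p = 0.0208) and with limma-voom (0.31, adjusted p = 0.0297).

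SAT1, which acetylates spermidine and spermine, had 15.4, 17.9 and 13.9 CPM in H929 with dBRD9-A, against 15.4, 13.0 and 13.1 CPM with DMSO. OPM2 had 4.69, 5.47 and 3.88 CPM with dBRD9-A, against 4.49, 4.23 and 4.23 CPM with DMSO. SAT1 had log2 fold changes of 0.18 in H929 (-0.15 to 0.51) and 0.10 in OPM2 (-0.24 to 0.45). PAOX, which oxidises the acetylated products, had 5.60, 7.14 and 5.15 CPM in H929 with dBRD9-A, against 6.03, 5.13 and 4.28 CPM with DMSO. In OPM2 it had 3.09, 0.0842 and 3.18 CPM with dBRD9-A, against 2.61, 3.14 and 2.80 CPM with DMSO, and the low value stands on 2 counts. The log2 fold change of PAOX was 0.21 in H929 (-0.96 to 1.38) and -0.34 in OPM2 (-1.54 to 0.87), and both intervals hold changes of 1 log2 unit in at least 1 direction.

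OPM2 dBRD9-A replicate 2 lay above the mean of its group mates for members of lower GC content and below it for the rest. The log2 ratio of its CPM to the mean of its 2 group mates was 0.81 for SMS (46.5% GC), 0.36 for AMD1 (38.0%), 0.35 for SAT1 (43.3%) and 0.20 for AZIN1 (40.7%). It was -0.95 for OAZ1 (54.0%), -1.33 for OAZ2 (52.8%), -0.82 for SMOX (61.0%) and -5.22 for PAOX (63.3%). The 2 genes called in OPM2 deviated little, with -0.23 for SRM (63.7%) and -0.01 for ODC1 (51.2%). The size of the deviation therefore did not follow GC content among the members, and the PAOX value rests on 2 counts.

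**Figure D3:**
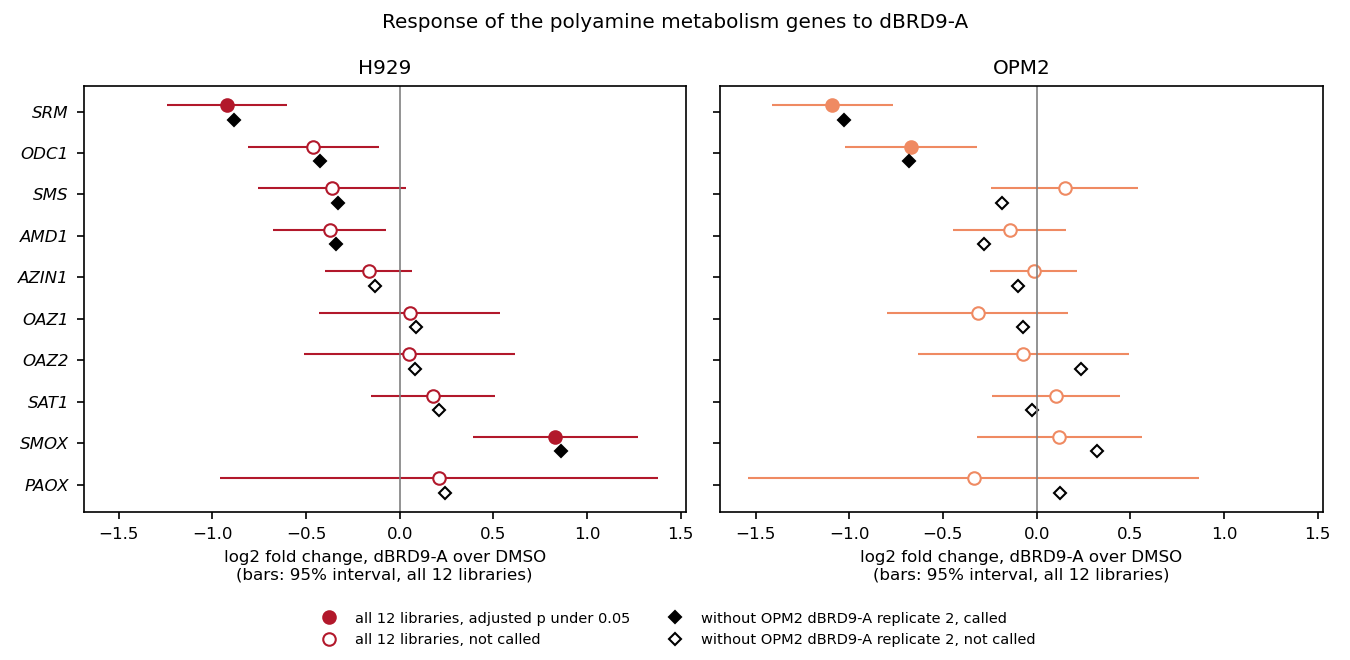
Log2 fold change of dBRD9-A over DMSO for each gene in H929 (left) and OPM2 (right). Circles with 95% intervals use all 12 libraries, diamonds leave out OPM2 dBRD9-A replicate 2, and filled symbols have an adjusted p under 0.05. SRM is filled in both lines and both fits, and in H929 ODC1, SMS and AMD1 are filled only as diamonds.

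Without OPM2 dBRD9-A replicate 2, 5 members were called in H929, a line to which that library does not belong. All groups share 1 estimate of the spread per gene, and the filter, the scaling and the adjustment over all genes changed as well. The part of each was not tested. The 5 were SRM, ODC1, SMS and AMD1, all lower, and SMOX, higher, where 35.7% of all genes were called. In OPM2 the count stayed at 2, SRM and ODC1, where 31.7% of all genes were called.

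Whether the lines differed in their response was tested as the difference of the fold changes, H929 minus OPM2. No member was called, where 0.579% of all genes were, and the count was 0 as well with DESeq2, with limma-voom and in every other alternative setting. At an unadjusted p under 0.05 in edgeR there was 1 member, SMOX, with a difference of 0.71 (95% interval 0.09 to 1.33, adjusted p = 0.483). For SRM the difference was 0.17 (-0.28 to 0.62) and for ODC1 0.21 (-0.28 to 0.70). SMS had the lowest, -0.51 (-1.07 to 0.05), which was -0.15 without OPM2 dBRD9-A replicate 2. A p above the threshold does not show that the lines responded alike.

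MYC, given as a known regulator of ODC1 and SRM, was lower with dBRD9-A in both lines. It had 59.5, 46.2 and 87.9 CPM in H929 with dBRD9-A, against 139, 282 and 216 CPM with DMSO, and 115, 96.6 and 134 CPM in OPM2 with dBRD9-A, against 284, 296 and 294 CPM with DMSO. The log2 fold change of MYC was -1.72 ± 0.26 in H929 (adjusted p = 0.00182, edgeR) and -1.33 ± 0.26 in OPM2 (adjusted p = 0.00544), called in all 22 alternative settings in each line. The part of MYC in the changes of SRM and ODC1 was not tested. The BRD9 transcript had a log2 fold change of -0.46 in H929 (adjusted p = 0.0391, edgeR), a call lost in 14 of 22 alternative settings, and -0.23 in OPM2 (adjusted p = 0.241). As the compound acts on the protein, this level does not check the treatment.

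Over the 12 libraries, the 5 genes whose log2 CPM was most like that of SRM, among 11457, were MRPL4, NHP2L1, NOC4L, FTSJ1 and PPAN-P2RY11, with Pearson's r of 0.99 for the first and 0.98 for the last. For ODC1 they were RCL1, MORC2-AS1, KTI12, BLMH and C1orf174, with r of 0.98 to 0.95. Without OPM2 dBRD9-A replicate 2 the values were 0.98 to 0.99 and 0.95 to 0.98. The points fall into 4 groups that share line and treatment, so these values describe likeness only. PPAN-P2RY11 is a read-through entry and MORC2-AS1 an antisense one, and reads of both may come from their neighbours.

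The wider pathway was read from 37 genes around these 10, of which 31 passed the low-count filter. In H929, 9 were called lower and 0 higher with dBRD9-A, and the median log2 fold change of the 31 was -0.21, against -0.00 over all genes. In OPM2, 9 were called lower and 1 higher, with a median of -0.33, against 0.03. Of all genes, 5.67% were called lower and 7.33% higher in H929, and 7.36% lower and 10.1% higher in OPM2. The H929 count depended on single libraries, as did the share of all genes called. It was 0 without H929 dBRD9-A replicate 1, where 5.37% of all genes were called, and 0 without H929 DMSO replicate 2 (4.86%). It was 2 without H929 dBRD9-A replicate 2 (7.91%), 3 without H929 DMSO replicate 3 (6.34%) and 16 without OPM2 dBRD9-A replicate 2 (35.7%). Of those 16, 13 were lower and 3 higher. The OPM2 count of 10 was 5 to 14 over the libraries left out. It was 5 without OPM2 DMSO replicate 3, where 8.92% of all genes were called, and 6 without OPM2 DMSO replicate 2 (8.29%). Without OPM2 dBRD9-A replicate 2 it was 14 (31.7%), of which 12 were lower and 2 higher.

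Among the genes that supply ornithine and arginine, 3 of 8 tested were called lower in H929 and 5 of 8 in OPM2. Of all genes, 5.67% were called lower in H929 and 7.36% in OPM2. The arginine transporter SLC7A1 had 82.1, 80.6 and 104 CPM in H929 with dBRD9-A, against 120.0, 162 and 149 CPM with DMSO, and 183, 125 and 231 CPM in OPM2 with dBRD9-A, against 325, 289 and 326 CPM with DMSO. No treated library reached a DMSO library of its line, with log2 fold changes of -0.69 in H929 (adjusted p = 0.0379, edgeR) and -0.80 in OPM2 (adjusted p = 0.0167). The SLC7A1 call was lost in 11 of 22 alternative settings in H929 (adjusted p up to 0.197) and in 3 in OPM2. SLC7A2, another cationic amino acid transporter, was lower by log2 fold changes of -1.34 in H929 and -1.04 in OPM2. Its call was lost in 2 of 22 alternative settings in H929 and in 3 in OPM2. ALDH18A1, which makes the precursor of ornithine and proline from glutamate, had -0.70 in H929, a call lost in 2, and -1.17 in OPM2.

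OAT, the aminotransferase between ornithine and glutamate semialdehyde, was called in OPM2 (-0.72, adjusted p = 0.00522, edgeR), with 52.3, 35.2 and 50.9 CPM with dBRD9-A, against 76.4, 72.5 and 79.0 CPM with DMSO. In H929 its log2 fold change was 0.07 (adjusted p = 0.814), and the difference of the responses was 0.78 (0.36 to 1.21, adjusted p = 0.130). The mitochondrial ornithine carrier SLC25A15 was called in OPM2 too (-1.04), and had -0.33 in H929 (adjusted p = 0.167). Both differences between the lines were called without OPM2 dBRD9-A replicate 2, where 3.05% of all genes were, at 0.67 for OAT (adjusted p = 0.00364) and 0.58 for SLC25A15 (adjusted p = 0.00636).

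Of the 7 tested genes for S-adenosylmethionine supply and the salvage of methylthioadenosine, the by-product of SRM and SMS, 4 were called lower in H929 and 3 in OPM2. The share of all genes called lower was 5.67% in H929 and 7.36% in OPM2. MAT2A, the catalytic methionine adenosyltransferase, had 252, 228 and 311 CPM in H929 with dBRD9-A, against 353, 484 and 397 CPM with DMSO, and 245, 241 and 285 CPM in OPM2 with dBRD9-A, against 369, 402 and 408 CPM with DMSO. Its groups did not overlap in either line, with log2 fold changes of -0.64 in H929 (adjusted p = 0.0136, edgeR) and -0.61 in OPM2 (adjusted p = 0.0137). The MAT2A call was lost in 4 of 22 alternative settings in H929 (adjusted p up to 0.100) and in 2 in OPM2. The salvage enzymes APIP (-0.38 in H929, -0.43 in OPM2) and ENOPH1 (-0.52 in H929, -0.45 in OPM2) were called in both lines. The H929 call was lost in 9 of 22 alternative settings for APIP (adjusted p up to 0.116) and in 3 for ENOPH1, and the OPM2 call in 1 for APIP and in 6 for ENOPH1 (adjusted p up to 0.109). MTAP, which cleaves methylthioadenosine, was called in H929 (-0.59) and had -0.44 in OPM2 (adjusted p = 0.0646), where it was called without OPM2 dBRD9-A replicate 2 (-0.64). The H929 call of MTAP was lost in 4 of 22 alternative settings (adjusted p up to 0.122).

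None of the 4 hypusine genes was called in either line, where 13.0% of all genes were called in H929 and 17.4% in OPM2. This pathway puts a modification made from spermidine on the translation factor EIF5A. EIF5A itself had a log2 fold change of -0.34 in H929 (adjusted p = 0.495, edgeR) and -0.64 in OPM2 (adjusted p = 0.138). Without OPM2 dBRD9-A replicate 2, EIF5A was called lower in both lines at -0.31 (adjusted p = 0.00900 in H929 and 0.0196 in OPM2), and DOHH, which completes the modification, in H929 (-0.48, adjusted p = 0.00315).

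Of 8 tested genes of polyamine transport, 2 were called in H929, where 13.0% of all genes were, and 2 in OPM2, where 17.4% were. ATP13A3, a polyamine-transporting ATPase, and SLC12A8 were called lower in H929 (-0.54 and -1.20), and SLC12A8 had at most 8 counts in any OPM2 library. The ATP13A3 call was lost in 10 of 22 alternative settings (adjusted p up to 0.174) and the SLC12A8 call in 5. In OPM2, the vesicular polyamine transporter SLC18B1 was called lower (-0.74, adjusted p = 0.00547, edgeR) and the organic cation exporter SLC47A1 higher (0.44, adjusted p = 0.0183), a call lost in 3. The difference of responses was called for SLC18B1 (1.11, adjusted p = 0.0399) and not for ATP13A3 (-0.44, adjusted p = 0.598), SLC12A8 (-1.71, adjusted p = 0.494) or SLC47A1 (-0.27, adjusted p = 0.656). Of the 4 other family members, none was called in either line. AZIN2, one of them, had 0 counts in all OPM2 libraries with dBRD9-A and 0, 0 and 3 with DMSO. SAT2 was called higher in H929 without OPM2 dBRD9-A replicate 2 (0.65, adjusted p = 0.000575).

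**Figure D4:**
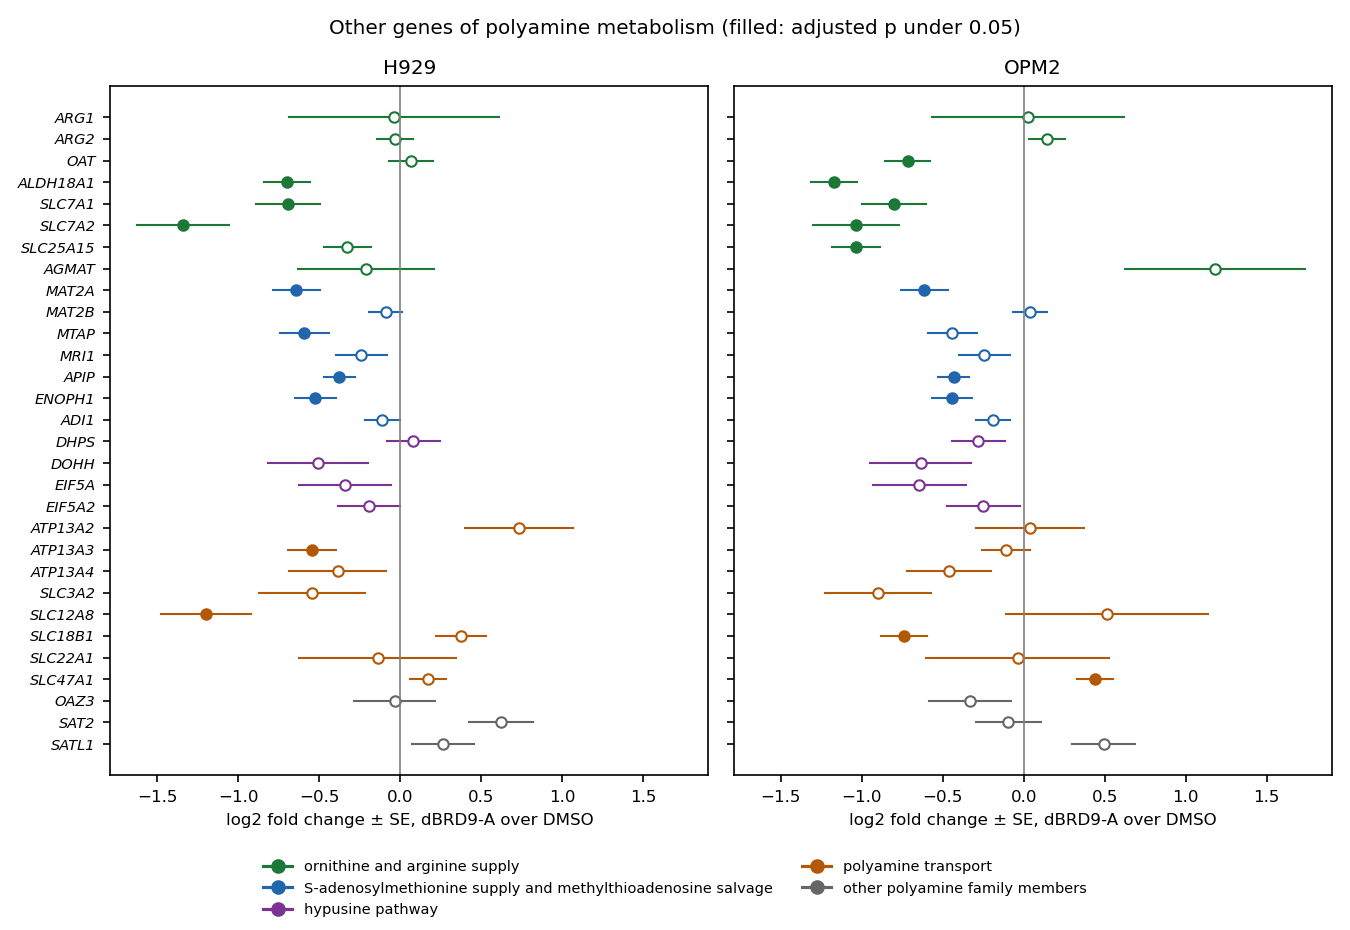
Log2 fold change ± SE of dBRD9-A over DMSO in H929 (left) and OPM2 (right) for the tested genes around the 10 members, coloured by their place in the pathway and filled where the adjusted p is under 0.05. AZIN2, at 0 in all OPM2 libraries with dBRD9-A, is not drawn. Most filled points lie below 0, and SLC47A1 in OPM2 is the filled point above it.

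The lines themselves were compared in DMSO, H929 over OPM2. Of the 10 members, 3 were called higher in H929 and 2 lower, where 60.2% of all genes were called, 32.6% higher and 27.5% lower. SAT1 stood out, with 15.4, 13.0 and 13.1 CPM in H929, against 4.49, 4.23 and 4.23 CPM in OPM2, a log2 fold change of 1.68 ± 0.16 (adjusted p = 1.41e-06, edgeR). AZIN1 was higher in H929 at 0.67 ± 0.11 (adjusted p = 0.000141). AMD1 (-0.74 ± 0.14, adjusted p = 0.000547) and SMS (-0.56 ± 0.18, adjusted p = 0.0173) were lower in H929. The libraries of the 2 lines did not overlap for these 4, nor for SRM, SMOX and PAOX, of which SMOX and PAOX were not called. The share of all genes without such overlap was not counted. SRM was higher in H929 at 0.43 ± 0.15 (adjusted p = 0.0236), a call lost in 6 of 22 alternative settings: library size only, GC trend removed (0.29, adjusted p = 0.229), and OPM2 DMSO replicate 1 or 3 or H929 DMSO replicate 2 or 3 left out. ODC1 (-0.05, -0.40 to 0.30), OAZ1 (-0.01, -0.49 to 0.48), OAZ2 (-0.03, -0.60 to 0.53), SMOX (0.27, -0.17 to 0.71) and PAOX (0.85, -0.33 to 2.04) were not called. PAOX was called without OPM2 dBRD9-A replicate 2 (0.82, adjusted p = 0.000221), where 74.6% of all genes were.

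SAT1 has a known alternative form in which an extra exon brings an early stop codon, and polyamines are known to favour its skipping. The files list a longer SAT1 entry with that exon and a shorter one without it, and the exon is shown because the entries differ in length by it, so that reads counted for the longer entry only overlap it. Its 110 bases, on the plus strand of chromosome X, follow GENCODE release 29, and capitals mark the first stop codon in the reading frame of the shorter form, at bases 12 to 14.
SAT1: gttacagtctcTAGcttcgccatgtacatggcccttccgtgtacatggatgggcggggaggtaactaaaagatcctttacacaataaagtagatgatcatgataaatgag
Reads counted only for the longer entry were 2.72% to 3.07% of its counts in H929 with dBRD9-A, 1.91% to 3.44% in H929 with DMSO, 3.08% to 7.78% in OPM2 with dBRD9-A and 4.60% to 9.79% in OPM2 with DMSO. The treated and DMSO libraries overlapped in both lines. These are shares of reads and not of SAT1 transcripts, since the exon makes up 110 of the 1187 bases of the longer entry. The shares rest on 4 to 28 reads a library. The 95% Wilson interval was 1.20% to 7.64% in the OPM2 library with 4, dBRD9-A replicate 2, and it covers counting error only. In DMSO all H929 shares lay below all OPM2 shares.

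The entries of the other members share most of their reads. ODC1, SMS, AZIN1, OAZ1 and OAZ2 had entries whose counts differed by at most 2.26% in any library, and SRM had 1 entry. SMOX had 5 entries, and a shorter one held 57.4% to 61.4% of the counts of the longest in H929 with dBRD9-A and 58.5% to 61.6% in H929 with DMSO. In OPM2 the share was 57.5% to 77.5% with dBRD9-A, where the highest is replicate 2, and 57.2% to 59.4% with DMSO. The H929 ranges overlapped.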

How the data were processed

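RNA was measured in 12 libraries, and the other 18 of 30 samples listed were not analysed here. Per the labels' protocols, libraries were stranded and poly(A)-selecting. Per the submitters' processing notes, tools include STAR and featureCounts and builds hg19 and GRCh37. Files hold 51780 RefSeq transcript entries, with count, FPKM and TPM columns per the file headers. The deposited counts are whole and unnormalised, and entries of 1 gene share reads. The deposited FPKM values were used only to recover transcript lengths, and the deposited TPM values give levels per length.

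Genes were filtered with filterByExpr by group (16409 left) and scaled by TMM. The main test was edgeR's quasi-likelihood test (edgeR 4.0.16, R 4.3.3). Each of the 4 groups had its own mean, and the spread of a gene was estimated jointly (8 residual degrees of freedom). P-values were Benjamini-Hochberg adjusted over all genes, with a threshold of 0.05. The strand setting of featureCounts is not given in these sources. Intervals are 95%. Log2 CPM for likeness used a prior count of 0.25 and genes with a mean of at least 1. On simulated counts the test found 180 of 200 changed genes, with 6 false calls. The simulation gave every gene the same spread and held no library that stood apart. It therefore does not give the error rates in these data. Alternatives were RLE factors, library size only, DESeq2 1.42.0, limma-voom (limma 3.58.1) with library weights, no low-count filter, 1 CPM in 3 libraries, the replicate number as a block, sums over entries, GC trend removed (GC known for 98.1% of genes), each library left out, and the 2 groups of a contrast fitted alone.

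All 10 genes are named throughout, with pathway genes called in at least 1 line, others where a sentence needs them, BRD9, MYC and the 5 genes most like SRM and ODC1. The choice of EIF5A, DOHH, SAT2, AZIN2 and JSRP1 followed their values. The members and lists were chosen with earlier results of these data known. No label says that replicates came from separate cultures, and p-values then reflect only the variation among these libraries, which may be technical. Depth was 24524190 to 76600957 counts.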

Additional observations from a re-analysis of the deposited data

Results flagged for a closer look

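SLC18B1, which carries polyamines into vesicles, differed between the lines in its response to dBRD9-A. It had 2.61, 2.80 and 2.58 CPM in H929 with dBRD9-A, against 2.31, 1.85 and 1.99 CPM with DMSO, and 8.43, 6.65 and 8.23 CPM in OPM2 with dBRD9-A, against 12.5, 14.3 and 12.3 CPM with DMSO. All treated libraries lay above the DMSO libraries in H929 and below them in OPM2. The difference of the log2 fold changes, H929 minus OPM2, was 1.11 (95% interval 0.66 to 1.57, adjusted p = 0.0399 in edgeR's interaction contrast), where 0.579% of all genes were called. It was called in 6 of 21 alternative settings, with an adjusted p of 5.17e-05 to 0.137 and a difference of 0.996 to 1.27 over them. In H929 the change itself was not called (log2 fold change 0.37, adjusted p = 0.135). It was called higher in 1 of 22 alternative settings, without OPM2 dBRD9-A replicate 2 (adjusted p = 0.0266, edgeR), where 35.7% of all genes were called.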

How the results depend on the processing

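Of 870 member values under the alternatives, 816 kept their direction and their side of the threshold, 12 fell short of it, 17 passed it and 25 changed sign, of which 1, OAZ2 in OPM2 with limma-voom, was then called. The members called, 2 in H929 and 2 in OPM2, were 5 and 5 with limma-voom, where 36.0% of all genes were called in H929 and 44.2% in OPM2, and 4 in H929 with its 2 groups fitted alone, where 32.3% were. Over the libraries left out they ranged from 1 to 5 in H929, from 1 to 2 in OPM2 and from 4 to 6 (5 with all) between the lines in DMSO, and stayed at 0 for the difference of responses. The pathway genes called, 9 in H929 and 10 in OPM2, were 16 in H929 with limma-voom, and 15 in H929 and 5 in OPM2 with the 2 groups fitted alone, where 5.82% of all genes were called in OPM2. Over the libraries left out they ranged from 0 to 16 in H929 and from 5 to 14 in OPM2. The share of all genes called then ranged from 4.86% to 35.7% in H929 and from 8.29% to 31.7% in OPM2. The cause of these shifts was not tested.

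Deviations of same-numbered libraries from their group means had correlations of -0.42 to 0.26, and the main test did not pair them. These values do not settle whether such libraries were handled together, since deviations of single libraries also followed GC content. With the replicate number as a block, 2 members were called in H929 and 2 in OPM2, 0 differed in response and 5 differed between the lines, and 7 and 10 pathway genes were called.

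Log2 fold changes that changed sign were all of genes not called in the comparison in edgeR. In OPM2, other tests or filters gave SMS -0.143 (limma-voom), AZIN1 0.0124 (RLE factors), 0.0185 (library size only), 0.00632 (DESeq2) and 0.0271 (1 CPM in 3 libraries), OAZ2 0.260 (limma-voom, adjusted p = 0.0266) and 0.0309 (GC trend removed), and PAOX 0.115 (limma-voom). For the difference of responses they gave SRM -0.229 and AZIN1 0.0162 (GC trend removed) and OAZ2 -0.209 (limma-voom), and between the lines OAZ1 0.00425 (RLE factors) and 0.00472 (DESeq2). Over the libraries left out, the values in OPM2 ranged from -0.184 to 0.298 for SMS, from -0.0992 to 0.0310 for AZIN1, from -0.344 to 0.235 for OAZ2, from -0.0233 to 0.220 for SAT1, from -0.0688 to 0.322 for SMOX, from -0.674 to 0.126 for PAOX and from -0.0708 to 1.13 for SLC12A8. In H929 they ranged from -0.0510 to 0.191 for OAZ1. For the difference of responses they ranged from -0.153 to 0.392 for OAZ2 and from -0.0442 to 0.231 for SAT1, and between the lines from -0.128 to 0.0622 for OAZ1.

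With library size only, 71.8% of called genes were higher in H929 and 69.4% in OPM2, against 56.4% and 57.8% with TMM. The SE of PAOX in OPM2 was 0.55, and 0.18 without OPM2 dBRD9-A replicate 2, a library with 2 counts of PAOX.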
